A study of Mus musculus with 48 samples.

Results

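The cannabinoid type-1 receptor (CB1), encoded by *Cnr1*, sits mainly on axon terminals, where endocannabinoids made by the neighboring neuron bind it and lower the release of transmitter. Hippocampal pyramidal cells carry it at lower density than the cholecystokinin-positive interneurons do, and on pyramidal cell terminals it limits the release of glutamate. In the Glu-CB1 line it was deleted by Cre recombinase driven by regulatory elements of *Nex* (now *Neurod6*), a transcription factor gene of dorsal telencephalic glutamatergic neurons. What the loss does to the transcriptome of unstimulated mice was asked here by comparing 7 Glu-CB1-KO libraries with 5 libraries of CB1-WT littermates, 12 of the 48 libraries of the series.

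Both groups were male mice of 8 weeks by their labels, taken from the home cage in the basal state, and each library came from hippocampal CA tissue with the dentate gyrus removed. The mutants came from CB1f/f mice, with loxP-flanked *Cnr1*, crossed with *nex1*-Cre mice, and the controls are labelled CB1-WT. Whether the controls carried floxed alleles or Cre is not given in the sources used here, so an effect of the Cre allele and an effect of losing CB1 cannot be told apart. The line deletes CB1 in *Nex*-expressing cells, and the interneurons in the same tissue keep theirs. For comparison, 7 Glu-CB1-KO and 5 Glu-CB1-WT mice of the same line had spent a few minutes in an open field arena before tissue was taken, and in the GABA-CB1 line Cre under *dlx5/6* elements deletes CB1 in GABAergic neurons (6 basal KO and 6 basal WT libraries).

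The libraries held 26088870 to 34060720 counted reads in Glu-CB1-WT and 28245728 to 33875879 in Glu-CB1-KO mice, and levels are given as CPM, the count of a gene scaled to the TMM-normalized total of its library. The libraries fell into 2 sets that the genotype did not define. Library names end in a number whose meaning the labels do not give, and the 2 WT and 3 KO libraries with a number under 850 lay apart from the 3 WT and 4 KO libraries with a number over 850 on the first principal component (36.5% of the variance). *Xkr4* read 4.41 to 5.503 CPM in the former and 21.6 to 39.5 in the latter, and 1428 genes differed between the sets (adjusted p under 0.05, edgeR quasi-likelihood F-test, Benjamini-Hochberg). Each set holds both genotypes, so log2 fold changes within the lower-numbered and the higher-numbered set are given, in that order, for the DEGs and for some other genes. They are not given for every gene whose value differed between the sets. Among genes described below without them, *Tbr1* had 0.31 (SE 0.09) and 0.04 (SE 0.06), and *Foxp2* had 0.74 (SE 0.31) and 0.28 (SE 0.15). A KO library (replicate 6) read 673 CPM summed over 14 choroid plexus markers, against at most 127 in the others.

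**Figure D1:**
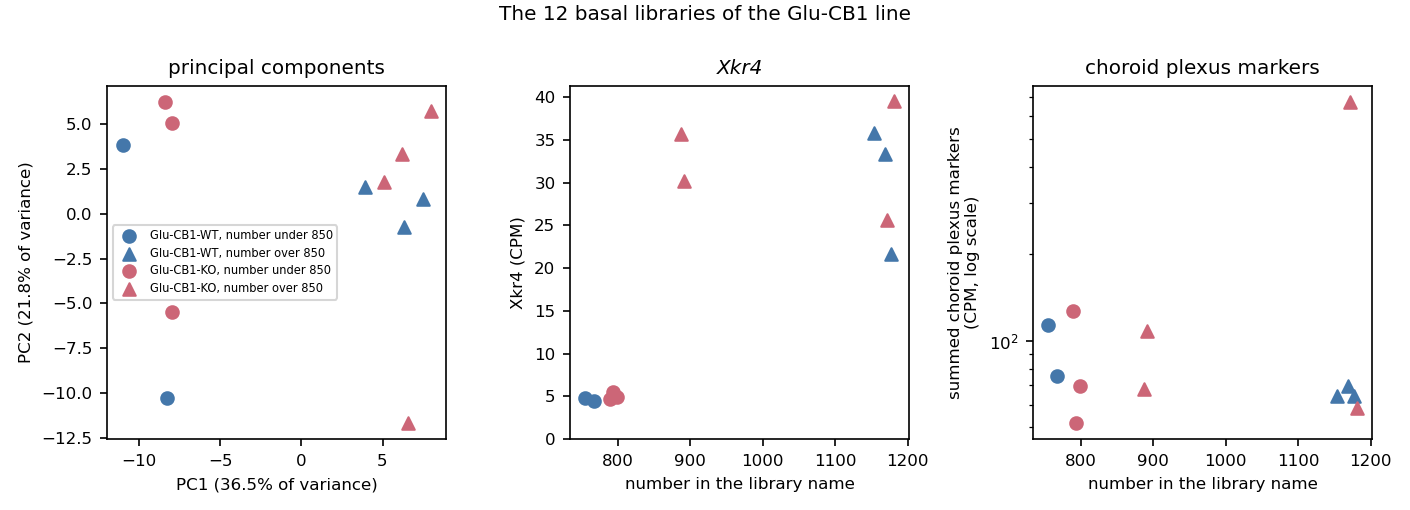
The 12 basal libraries of the Glu-CB1 line, with color for genotype and shape for the set of name numbers. Left, scores on the first 2 principal components; middle, *Xkr4* in CPM against the number in the library name; right, summed choroid plexus markers in CPM on a log scale. The sets split on the first component and by *Xkr4* without splitting the genotypes, and KO replicate 6 alone stands high at 673 CPM.

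Of 15138 genes tested, 3 were DEGs at an adjusted p-value under 0.05 (0.0198%): *Cnr1* and *Neurod6* fell in Glu-CB1-KO mice (0.0132% of genes called lower) and *Gm3279*, a gene model with no assigned function that lies next to *Neurod6*, rose (0.00661% called higher). At an unadjusted p under 0.05 there were 541 genes (3.57%), 293 higher (1.94%) and 248 lower (1.64%). All 7 KO libraries lay beyond all 5 WT libraries in 27 genes (0.178%), 14 higher (0.0925%) and 13 lower (0.0859%). The median log2 fold change of all genes was -0.00091, with a median standard error of 0.07. The whole 95% interval lay within a 1.5-fold change either way for 13718 genes, 90.6% of those tested, and larger differences lie outside those genes' intervals.

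*Cnr1* (chr4:33924632-33948831, mm10, plus strand) is the targeted gene. The WT libraries read 338, 376, 377, 396 and 409.7 CPM, and the KO libraries ran from 208 to 249 with a median of 226. The groups did not overlap, and the lowest WT library stood well above the highest KO library. The means were 379 ± 27.1 (SD, n = 5) and 228 ± 16.5 CPM (SD, n = 7), a log2 fold change of -0.73 (SE 0.06, 95% interval -0.85 to -0.61, adjusted p = 1.70e-05, edgeR quasi-likelihood F-test, Benjamini-Hochberg). The KO mice thus held 60.2% of the WT level, with an interval of 55.5% to 65.3%. In bulk tissue, fewer cells that express a gene and less RNA per cell cannot be told apart, and the counts are per whole gene, so reads of any part left by the deletion are included. Within the lower-numbered libraries the log2 fold change was -0.75 and within the higher-numbered ones -0.72.

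After the open field, in other mice, the WT libraries read 329.7, 339, 369.6, 389 and 397 CPM and the KO libraries 203 to 250.3. The log2 fold change there was -0.72 (SE 0.05, adjusted p = 7.59e-06 by the same test), and its difference from the basal value was -0.01 (SE 0.08, adjusted p = 1.000). In the GABA-CB1 line the basal log2 fold change was -1.23 (SE 0.05). The fall of *Cnr1* was smaller in the Glu-CB1 mice than in the GABA-CB1 mice, with a difference of 0.50 in log2 fold change (SE 0.08, adjusted p = 0.00170, genotype by line, edgeR).

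*Neurod6* and *Gm3279*, the other DEGs, are neighbors on chromosome 6. They lie head to head, with *Neurod6* (chr6:55677819-55681263) on the minus strand and *Gm3279* (chr6:55684571-55694574) on the plus strand, and their starts are 3308 bases apart. Because they moved in opposite directions from this shared interval, the 250 bases upstream of each start are shown (RefSeq, GRCm38.p6), Neurod6 at chr6:55681264-55681513 on the minus strand and Gm3279 at chr6:55684321-55684570 on the plus strand, each 5′ to 3′. Capitals mark E-boxes (CANNTG, read on both strands), the motif that NEUROD proteins bind.
Neurod6: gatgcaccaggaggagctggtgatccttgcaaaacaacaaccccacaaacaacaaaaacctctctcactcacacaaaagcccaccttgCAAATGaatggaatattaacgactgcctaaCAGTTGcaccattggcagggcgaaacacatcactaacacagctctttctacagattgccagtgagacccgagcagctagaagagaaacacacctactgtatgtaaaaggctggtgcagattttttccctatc
Gm3279: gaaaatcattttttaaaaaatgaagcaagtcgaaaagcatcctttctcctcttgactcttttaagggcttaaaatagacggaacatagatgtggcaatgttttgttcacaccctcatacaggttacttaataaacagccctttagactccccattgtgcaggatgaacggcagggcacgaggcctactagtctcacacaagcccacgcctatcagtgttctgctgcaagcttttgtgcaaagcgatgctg
The *Neurod6* window holds 2 E-boxes and 1 CCAAT, and the *Gm3279* window holds neither. An E-box is found in 66.2% of the 32817 upstream windows of this length and CCAAT in 33.8%. TATAAA and TGACGTCA, the cyclic AMP response element, are in neither window, and are in 12.4% and 1.55% of all windows. These matches describe letters only.

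*Neurod6* marks the cells in which the deletion was made. The WT libraries read 306, 326, 342, 380.0 and 385 CPM, and the KO libraries ran from 198 to 258 with a median of 220.1. Again no KO library reached the lowest WT library. The means were 348 ± 34.3 (SD, n = 5) and 220.3 ± 20.2 CPM (SD, n = 7), and the log2 fold change was -0.66 (SE 0.07, adjusted p = 5.10e-04, edgeR quasi-likelihood F-test, Benjamini-Hochberg), 63.3% of the WT level (interval 57.2% to 70.1%). In open field mice the WT libraries lay between 339 and 399 CPM and the KO libraries between 198 and 239, a log2 fold change of -0.78 (SE 0.05, adjusted p = 1.15e-06). In the GABA-CB1 line, whose Cre does not use this gene, the value was -0.06 (SE 0.05, adjusted p = 0.754), and the lines differed by -0.59 (SE 0.09, adjusted p = 0.00151, edgeR). Within the lower-numbered libraries alone, 2 against 3, the log2 fold change of *Neurod6* was -0.76 and no longer passed (adjusted p = 0.0763); within the higher-numbered ones it was -0.59 (adjusted p = 0.0122, both edgeR).

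No other marker of forebrain glutamatergic neurons passed the test. Of the list, 6 of 12 members were higher, with a median log2 fold change of 0.01. *Slc17a7*, the vesicular glutamate transporter of these cells, had 0.02 (SE 0.05), *Neurod2* 0.01 (SE 0.06), *Camk2a* -0.01 (SE 0.06), *Nrgn* 0.07 (SE 0.08) and *Tbr1*, a transcription factor, 0.16 (SE 0.07), all log2 fold changes. The list's summed level, *Neurod6* included, was 7550.2 to 9208 CPM in WT and 7889 to 9184 CPM in KO libraries.

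*Gm3279* was near the floor in WT mice. Its WT libraries read 0.152, 0.298, 0.323, 0.355 and 0.383 CPM, which is 5 to 12 counted reads, and the KO libraries ran from 2.13 to 4.20 with a median of 2.88 CPM, or 63 to 140 reads. Every KO library lay far above every WT library, and the log2 fold changes within the sets were 3.43 (SE 0.34) and 3.32 (SE 0.30). The log2 fold change was 3.34 (SE 0.26, adjusted p = 1.70e-05, edgeR quasi-likelihood F-test, Benjamini-Hochberg), 10.1-fold with an interval of 6.87 to 14.9. The open field WT libraries held 0.168 to 0.457 CPM and the KO libraries 1.75 to 3.19, with a log2 fold change of 3.03 (SE 0.24, adjusted p = 8.14e-06). The GABA-CB1 line gave -0.34 (SE 0.25), and the lines differed by 3.68 (SE 0.39, adjusted p = 1.83e-05, edgeR). Of the 3 DEGs it had the fewest reads and the largest fold change.

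**Figure D2:**
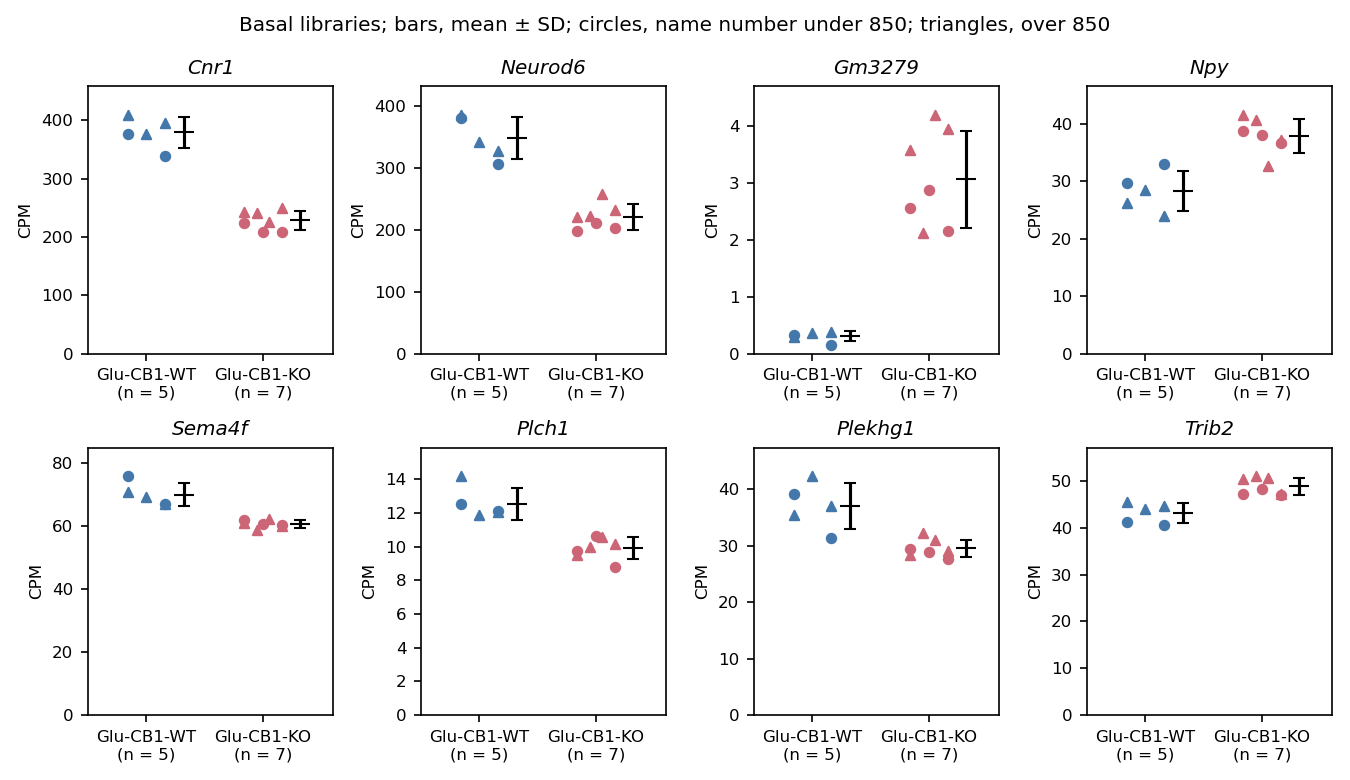
Level in CPM of 8 genes in each basal library of the Glu-CB1 line, 5 WT and 7 KO, with mean ± SD; each vertical axis starts at 0. The shape gives the set of name numbers. The groups do not overlap for *Cnr1*, *Neurod6*, *Gm3279*, *Sema4f*, *Plch1* and *Trib2*, and they do for *Npy* and *Plekhg1*.

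The remaining genes of the endocannabinoid system did not pass the test. Endocannabinoids are made on demand from membrane lipids: diacylglycerol lipases (*Dagla*, *Daglb*) form 2-arachidonoylglycerol, and *Napepld*, *Abhd4*, *Gde1* and *Pla2g4e* act in routes to anandamide and related amides. Of these 6 enzymes, 5 were higher in KO mice, with a median log2 fold change of 0.07. *Dagla* had 0.04 (SE 0.08). *Daglb* had 0.10 (SE 0.04) and *Gde1* 0.08 (SE 0.03), both with an unadjusted p under 0.05 and an adjusted p of 0.999 (edgeR, Benjamini-Hochberg). *Gde1* also differed between the lines, with a log2 fold change of -0.09 (SE 0.03) in the GABA-CB1 line and a difference of 0.17 (SE 0.04, adjusted p = 0.0369, genotype by line, edgeR). Within the sets the Glu-CB1 value of *Gde1* was 0.01 (SE 0.05) and 0.12 (SE 0.04).

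Of the 6 genes of breakdown, 3 were higher and none had an unadjusted p under 0.05. *Mgll*, monoacylglycerol lipase, which ends most 2-arachidonoylglycerol signaling, had 0.02 (SE 0.07). *Faah*, which hydrolyzes anandamide, had -0.05 (SE 0.05), *Abhd6* -0.03 (SE 0.04) and *Abhd12* 0.03 (SE 0.03), all log2 fold changes. The 95% intervals of these 4 lay between -0.17 (*Faah*) and 0.17 (*Mgll*). CB1 acts through Gi/o proteins, adenylyl cyclases, arrestins and potassium channels, and of 24 such partners tested 12 were higher and 12 lower, with a median of 0.00077 and no unadjusted p under 0.05. *Gnao1*, the alpha subunit of Go, had -0.01 (SE 0.04), *Gnai1* 0.0047 (SE 0.05), *Arrb1* 0.01 (SE 0.03), *Kcnj3*, a G protein-gated potassium channel, 0.01 (SE 0.04), *Adcy1*, a calcium-stimulated adenylyl cyclase, 0.09 (SE 0.09), and *Cnrip1*, a protein that binds the tail of CB1, 0.04 (SE 0.04). The other receptors for these lipids were too low to test: *Cnr2*, *Gpr55*, *Gpr18*, *Gpr119* and *Trpv1* had at most 10 reads in any library.

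Among genes that did not pass, 4 were DEGs by DESeq2, which called 7 of 19904 genes with a p (0.0352%), the 3 above included. They were *Npy*, *Sema4f*, *Plch1* and *Plekhg1*. *Npy* encodes neuropeptide Y, released by interneurons and known to dampen excitatory transmission. Its WT libraries read 23.9, 26.3, 28.5, 29.8 and 32.9 CPM and its KO libraries ran from 32.6 to 41.6 with a median of 38.10. The lowest KO library lay just under the highest WT library, and the other 6 lay above all WT libraries. The log2 fold change was 0.42 (SE 0.07, adjusted p = 0.149 in the edgeR quasi-likelihood F-test, Benjamini-Hochberg and 3.59e-04 by DESeq2). After the open field the groups were apart, at 21.1 to 32.7 CPM in WT and 33.3 to 42.01 in KO mice, and *Npy* rose there by 0.55 on the log2 scale (SE 0.09, adjusted p = 0.0185, edgeR). The GABA-CB1 line gave -0.29 (SE 0.09), and the difference between the lines was 0.71 (SE 0.12, adjusted p = 0.00547, edgeR). Without WT replicate 3 the basal value was 0.48 and passed (adjusted p = 0.0260, edgeR). *Npy* passed in only 1 of the 12 fits that each left a library out, with adjusted p-values up to 0.493 (edgeR). Within the sets the basal log2 fold change was 0.27 (SE 0.07) and 0.53 (SE 0.09). *Npy* lies on chromosome 6, 5.86 Mb from *Neurod6*.

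*Sema4f*, a transmembrane semaphorin, differed by a small and even amount. It also lies on chromosome 6 (chr6:82911885-82939769). The WT libraries read 67.0, 67.0, 69.3, 70.9 and 75.9 CPM and the KO libraries ran from 58.8 to 62.4 with a median of 60.8. Every KO library was below every WT library, with an SD of 1.19 CPM in KO mice. The log2 fold change was -0.20 (SE 0.04, adjusted p = 0.149, edgeR with Benjamini-Hochberg adjustment), and after the open field the gene fell by 0.19 on the log2 scale (SE 0.04, adjusted p = 0.0424). *Plch1*, a phospholipase C of the eta class, read 11.9, 12.0, 12.1, 12.5 and 14.2 CPM in WT and ran from 8.82 to 10.7 with a median of 9.97 in KO libraries. The groups were apart, though WT replicate 2 alone was at 14.2. Its log2 fold change was -0.34 (SE 0.06, adjusted p = 0.204, edgeR), and after the open field -0.28 (SE 0.12, adjusted p = 0.611), where the groups overlapped. *Plekhg1*, which encodes a guanine nucleotide exchange factor of small GTPases, read 31.4, 35.4, 36.97, 39.2 and 42.3 CPM in WT and ran from 27.6 to 32.1 with a median of 29.1 in KO libraries. A single WT library reached into the KO range. Its log2 fold change was -0.33 (SE 0.06, adjusted p = 0.268, edgeR), and after the open field it fell by 0.42 on the log2 scale (SE 0.08, adjusted p = 0.0424). Without WT replicate 3 the basal value was -0.38 and passed (adjusted p = 0.0260, edgeR). *Plekhg1* passed in only 1 of the 12 fits that each left a library out, with adjusted p-values up to 0.943 (edgeR). *Plekhg1* was also among the thalamus markers used below.

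The genes with the next lowest p-values, 6 higher and 6 lower by rule, are given as values, none of them a DEG by edgeR. On the higher side, with *Npy*, were *Shb*, an SH2 adaptor of receptor tyrosine kinases, with a log2 fold change of 0.40 (SE 0.09), and *Trib2*, a Tribbles pseudokinase, with 0.18 (SE 0.04). Their KO libraries lay above all WT libraries: *Trib2* read 40.7, 41.1, 43.9, 44.6 and 45.6 CPM in WT and ran from 47.1 to 51.0 with a median of 48.3 in KO mice. *Pdlim1*, an actinin-binding LIM protein, had 0.61 (SE 0.14), *Mylk*, myosin light chain kinase, 0.27 (SE 0.06), and *Blnk*, the B cell linker adaptor, 0.70 (SE 0.17). On the lower side, with *Sema4f*, *Plch1* and *Plekhg1*, were *Pyurf* with -0.29 (SE 0.07), *Rab27a*, a GTPase of secretory vesicle docking, with -0.23 (SE 0.05), and *Smco3* with -0.26 (SE 0.06). The adjusted p-values of these 8 genes ran from 0.669 to 0.686 (edgeR, Benjamini-Hochberg). *Pyurf* and *Smco3* lie on chromosome 6, as do *Npy* and *Sema4f*.

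Several of these genes differed between the 2 lines. The genes above were picked for a low basal p in the Glu-CB1 line, and the genotype by line test reuses the same libraries. A difference that passes is therefore not independent evidence that a gene is particular to this line. *Blnk* had -0.78 (SE 0.11) in the GABA-CB1 line, a difference of 1.47 (SE 0.21, adjusted p = 0.00118, edgeR). *Pdlim1*, close to *Blnk* on chromosome 19, had -0.67 (SE 0.13) there, a difference of 1.29 (adjusted p = 0.00151), and *Mylk* -0.35 (SE 0.07), a difference of 0.62 (adjusted p = 0.00314). The genotype by line test called 43 of 15390 genes (0.279%, and 8.56% at an unadjusted p under 0.05), with 32 of them more positive in the Glu-CB1 line. Other genes with an unadjusted p under 0.05 in the Glu-CB1 line were among them, such as *Crhbp*, which encodes the binding protein of corticotropin-releasing hormone, with 0.36 (SE 0.12) against -0.44 (SE 0.07) (adjusted p = 0.00750, edgeR). *Ier5*, an immediate early gene, had 0.26 (SE 0.07) against -0.37 (SE 0.08) (adjusted p = 0.00668), *Kcnip3*, a calcium-binding subunit of A-type potassium channels, 0.14 (SE 0.06) against -0.24 (SE 0.04) (adjusted p = 0.00733), and *Ntsr1*, a neurotensin receptor, -0.44 (SE 0.12) against 0.41 (SE 0.10) (adjusted p = 0.0138). Within the sets the Glu-CB1 values were 0.07 (SE 0.14) and 0.58 (SE 0.10) for *Crhbp* and 0.46 (SE 0.08) and 0.13 (SE 0.07) for *Ier5*. They were 0.38 (SE 0.21) and 0.78 (SE 0.16) for *Pdlim1* and -0.25 (SE 0.16) and -0.60 (SE 0.15) for *Ntsr1*. None of these passed within a set. The 2 lines were bred and tested against their own littermates, and each value rests on 12 libraries.

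The open field mice of the same line gave a second measurement of the genotype difference in animals that the basal comparison did not use. Of the 538 genes with a basal p under 0.05 that were also tested there, 392 (72.9%) had the same sign, against 8530 of all 15012 genes (56.8%). Of these 538, 113 also had a p under 0.05 after the open field in the same direction, where 6.97% of all genes had such a p in either direction, and 1 in the opposite direction. With chromosome 6 left out the same-sign share was 71.1%. Of the 12 genes of lowest p described above, 11 had the same sign and 10 a p under 0.05. *Rab27a* was the exception in sign, at -0.23 basal and 0.08 (SE 0.07) after the open field, and *Smco3* was at -0.08 (SE 0.11).

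After the open field 41 of 15078 genes were DEGs (0.272%). Of all genes tested in the basal state, 1.94% had a p under 0.05 and were higher, and 1.64% were lower. Of the 41 DEGs, 15 had a basal p under 0.05 in the same direction. They were the 3 DEGs, *Npy*, *Sema4f*, *Plekhg1* and 9 genes named because of their values there: *Ntsr1* -0.44 (SE 0.12), *Bmp3*, a bone morphogenetic protein, 0.67 (SE 0.19), *Lpl*, lipoprotein lipase, -0.27 (SE 0.09), *Crhbp*, *Col11a1*, a fibrillar collagen, -0.25 (SE 0.09), *Wnt11*, a Wnt ligand, -0.51 (SE 0.21), *Cd83* -0.15 (SE 0.07), *Ckmt1*, mitochondrial creatine kinase, 0.13 (SE 0.06), and *B230110G15Rik* -0.58 (SE 0.18), all basal log2 fold changes. Each had a basal adjusted p of 0.999 (edgeR, Benjamini-Hochberg). *Lpl* read 85.5, 95.2, 109, 112 and 115 CPM in basal WT and ran from 71.3 to 101 with a median of 85.8 in basal KO libraries, so the groups overlapped, and its open field value was -0.37 (SE 0.06). *Crhbp* read 18.9, 19.3, 21.2, 23.6 and 31.3 CPM in WT and ran from 23.8 to 33.3 with a median of 31.4 in KO libraries, with a single WT library among the KO values, and 0.61 (SE 0.10) after the open field. The genotype by state test asked whether the KO minus WT difference itself differed between the states. It passed for none of 15355 genes by edgeR (0%, 379 genes at an unadjusted p under 0.05, 2.47%) and for none by DESeq2. No genotype difference was thus shown to differ between the states, and the response to the open field itself was not tested.

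**Figure D3:**
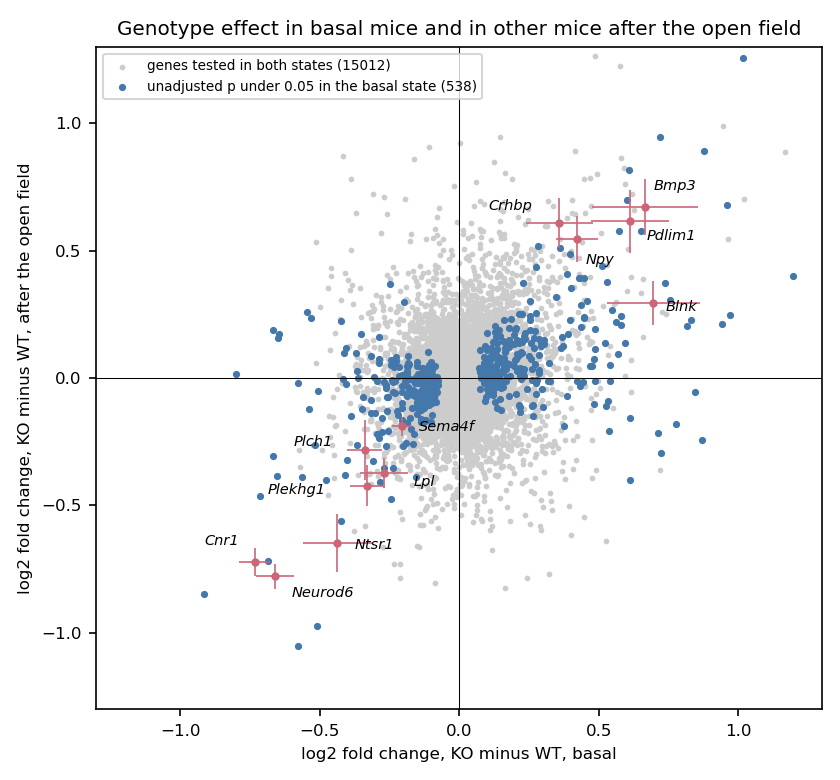
Log2 fold change, KO minus WT, of the Glu-CB1 line in basal mice (horizontal) and in other mice after the open field (vertical), 1 point per gene; genes beyond 1.3 on an axis, among them *Gm3279*, are not drawn. Blue points had a basal p under 0.05, and red points are named genes with SE bars. *Cnr1* and *Neurod6* lie low in both states, and 72.9% of the 538 blue genes have the same sign in both.

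Gene groups were described by how many of their members were higher and by their median, beside all genes, of which 7490 of 15138 were higher with a median of -0.00091. No member of the lists below was a DEG other than *Cnr1* and *Neurod6*. Members of a list can vary together from mouse to mouse, so the counts are not independent observations, and no set test was made. The activity-regulated immediate early genes were higher in 29 of 34 cases, with a median of 0.09 beside a spread between libraries of 0.09 (SD). Of all genes 1.94% had an unadjusted p under 0.05 and were higher. Here 5 members had such a p, all higher. These were *Ier5*, *Nr4a1*, a nuclear receptor induced by activity, with 0.21 (SE 0.08), *Nptx2*, a secreted pentraxin that gathers AMPA receptors, with 0.32 (SE 0.13), *Atf3* with 0.46 (SE 0.20) and *Vgf*, a secreted neuropeptide precursor, with 0.18 (SE 0.08). *Arc*, which controls the uptake of AMPA receptors, read 61.9, 78.1, 85.4, 93.9 and 109 CPM in WT and ran from 79.8 to 119.9 with a median of 91.2 in KO libraries, which overlapped widely, and had 0.14 (SE 0.12). *Fosb* had 0.26 (SE 0.12), *Fos* 0.10 (SE 0.19), *Egr1* 0.06 (SE 0.12), *Npas4* 0.19 (SE 0.15), *Bdnf* 0.11 (SE 0.09) and *Homer1*, a scaffold of the postsynaptic density, 0.04 (SE 0.10). After the open field, 12 of 34 were higher, with a median of -0.05.

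Neuropeptide precursors were higher in 17 of 20 cases, with a median of 0.13 basal and 0.22 after the open field. The basal spread between libraries was 0.13 (SD) for this list. Besides *Npy*, *Sst*, somatostatin, had an unadjusted p under 0.05. Its WT libraries read 86.6, 88.9, 94.6, 95.7 and 134 CPM and its KO libraries ran from 96.3 to 147 with a median of 116, which put 4 of 5 WT libraries below all KO libraries and WT replicate 3 in their upper range. The log2 fold change was 0.27 (SE 0.11), 0.17 (SE 0.17) and 0.35 (SE 0.09) within the sets, and 0.44 (SE 0.09) after the open field. *Cck* had 0.10 (SE 0.05), *Vip* 0.09 (SE 0.12) and *Penk* 0.12 (SE 0.10). Granins and the enzymes that process prohormones were higher in 7 of 11 cases, with *Chga*, chromogranin A, at 0.16 (SE 0.05) (unadjusted p = 0.00622, adjusted p = 0.999, edgeR) and *Cpe*, carboxypeptidase E, at 0.02 (SE 0.04). Many of these peptides belong to interneurons, so the interneuron markers are set beside them: 14 of 23 were higher, with a median of 0.02, *Gad1* had 0.04 (SE 0.05), *Sncg*, gamma-synuclein, 0.28 (SE 0.10), *Lamp5*, a membrane protein of neurogliaform cells, 0.21 (SE 0.08), and the summed level was 1376 to 1522 CPM in WT and 1323 to 1631 CPM in KO libraries.

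The machinery of transmission showed medians near that of all genes. Synaptic vesicle release genes were higher in 20 of 36 cases (median 0.01), with *Snap25* at 0.01 (SE 0.05). Voltage-gated calcium channels were higher in 6 of 15 (median -0.02, *Cacna1e* of the R-type channel -0.0046 (SE 0.10)), and GABA receptors, synthesis and transport in 14 of 21 (median 0.01), with *Gabbr1* at 0.03 (SE 0.03). Glutamate receptors and their auxiliary subunits were higher in 20 of 36 (median 0.0032). In that list *Cnih3*, a cornichon that slows AMPA receptor channels, had 0.23 (SE 0.09), *Cacng3*, a TARP, 0.11 (SE 0.04) and *Grm2* 0.27 (SE 0.12), each with an unadjusted p under 0.05, while *Gria1* had 0.0027 (SE 0.04). *Grin2b* ran from 35.97 to 170.1 CPM in WT and from 48.6 to 172 in KO libraries, and its log2 fold change of 0.01 (SE 0.39) has an interval of -0.82 to 0.85. Its low values were those of the lower-numbered set, as for *Xkr4*. Potassium channels were higher in 25 of 38 (median 0.02), with *Kcnip1*, a subunit of A-type channels, at 0.24 (SE 0.06), *Kcnip3* as above and *Kcnn2* at 0.10 (SE 0.06).

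Neurotrophins and their receptors were higher in 4 of 7 cases (median 0.01), genes of the glucocorticoid response in 7 of 16 (median -0.03) and clock genes in 8 of 16 (median 0.00056). *Sort1*, which encodes sortilin, had -0.02 (SE 0.04), and *Tef*, a PAR bZIP factor of the clock output, -0.09 (SE 0.06). In the glucocorticoid list *Crhr1*, the receptor of corticotropin-releasing hormone, had -0.28 (SE 0.10) while *Crhbp* had 0.36 (SE 0.12), and *Nr3c1*, the glucocorticoid receptor, had 0.01 (SE 0.05) and *Nr3c2*, the mineralocorticoid receptor, -0.0019 (SE 0.10). Respiratory chain subunits were higher in 74 of 85 cases, with a median of only 0.05 basal and 0.02 after the open field (63 of 84 higher), and ribosomal proteins in 46 of 73 (median 0.03). Genes that the study names were higher in 14 of 16 cases (median 0.13). Most of them were picked from comparisons of the series' own libraries, several of them from the open field, and *Arc*, *Tdo2* and *Adgrl2* for checks of activation and dissection, so the count is not independent evidence of a direction. Among them *Ldb2*, a LIM-domain binding cofactor, had 0.24 (SE 0.16), *Sptb*, erythrocytic beta-spectrin, -0.10 (SE 0.05) and *Adgrl2*, the adhesion receptor latrophilin-2, 0.09 (SE 0.11). *Rab3b*, a vesicle GTPase, had 0.09 (SE 0.08), *Nr4a2*, a nuclear receptor, 0.08 (SE 0.14) and *Tdo2*, a dioxygenase that breaks down tryptophan, 0.18 (SE 0.24).

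Markers of other cell types show how alike the dissections were. The CA1 list was higher in 5 of 5 cases (median 0.13, *Pou3f1* 0.20 (SE 0.07), *Mpped1* 0.13 (SE 0.08)), with a summed level of 694 to 811 CPM in WT and 735 to 879.8 CPM in KO libraries, and the CA3 and CA2 list in 3 of 12 (median -0.05, *Cpne4* -0.08 (SE 0.10), summed 664.6 to 823 and 628 to 857 CPM). All 10 dentate granule cell markers, *Prox1* among them, were detected in this tissue, dissected without the dentate gyrus. Which cells they came from was not tested. All 10 were higher (median 0.08), with sums of 306 to 524 CPM in WT and 332 to 736 CPM in KO libraries, the highest in KO replicate 2. Without that library the median turned to -0.06, and the other 6 KO libraries summed to 332 to 433 CPM. *Fam163b* of this list had 0.08 (SE 0.16). After the open field 2 of 10 were higher. Subiculum and cortex markers were higher in 7 of 8 (median 0.32, *Foxp2* 0.48 (SE 0.16), *Tle4* 0.06 (SE 0.04), summed 129 to 165 and 123 to 179 CPM) and thalamus markers in 4 of 11 (median -0.05, *Ntng1* -0.05 (SE 0.11)). The part of these markers in the gene differences above was not tested.

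The choroid plexus list had the most positive median, 0.61, with 12 of 13 higher and *Ttr*, transthyretin, at 2.06 (SE 0.91), and both rest on KO replicate 6: without it the list median was -0.06 and *Ttr* had 0.31 (SE 0.43). *Ttr* read 15.7, 19.1, 19.4, 29.03 and 47.6 CPM in WT and ran from 11.8 to 566 with a median of 27.9 in KO libraries, and the highest value was KO replicate 6. Summed choroid markers were 64.2 to 113 CPM in WT and 51.8 to 127 in the other 6 KO libraries, so the groups overlapped apart from that library. Without it the same 3 genes were DEGs. Oligodendrocyte markers were higher in 10 of 15 (median 0.03, *Mbp* 0.10 (SE 0.08)), astrocyte markers in 5 of 13 (median -0.02, *Slc1a2* -0.02 (SE 0.05)), microglia markers in 12 of 14 (median 0.07) and vascular markers in 9 of 16 (median 0.0043, *Slco1a4* -0.05 (SE 0.09)). Microglia sums overlapped, at 476 to 555 CPM in WT and 506 to 594 CPM in KO libraries. After the open field 0 of 15 oligodendrocyte, 4 of 13 astrocyte, 1 of 14 microglia and 6 of 16 vascular markers were higher. *Tyrobp*, a microglial adaptor outside these lists, was picked after values were seen. It was among the 14 of all genes tested (0.0925%) that were higher in every KO than in every WT library. Its log2 fold change was 0.28 basal (unadjusted p = 8.36e-04, edgeR, not a DEG) and -0.02 after the open field. The 6 globin genes were listed at 0 in all 12 libraries, and *Alas2*, the erythroid enzyme of heme synthesis, had -0.04 (SE 0.22).

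**Figure D4:**
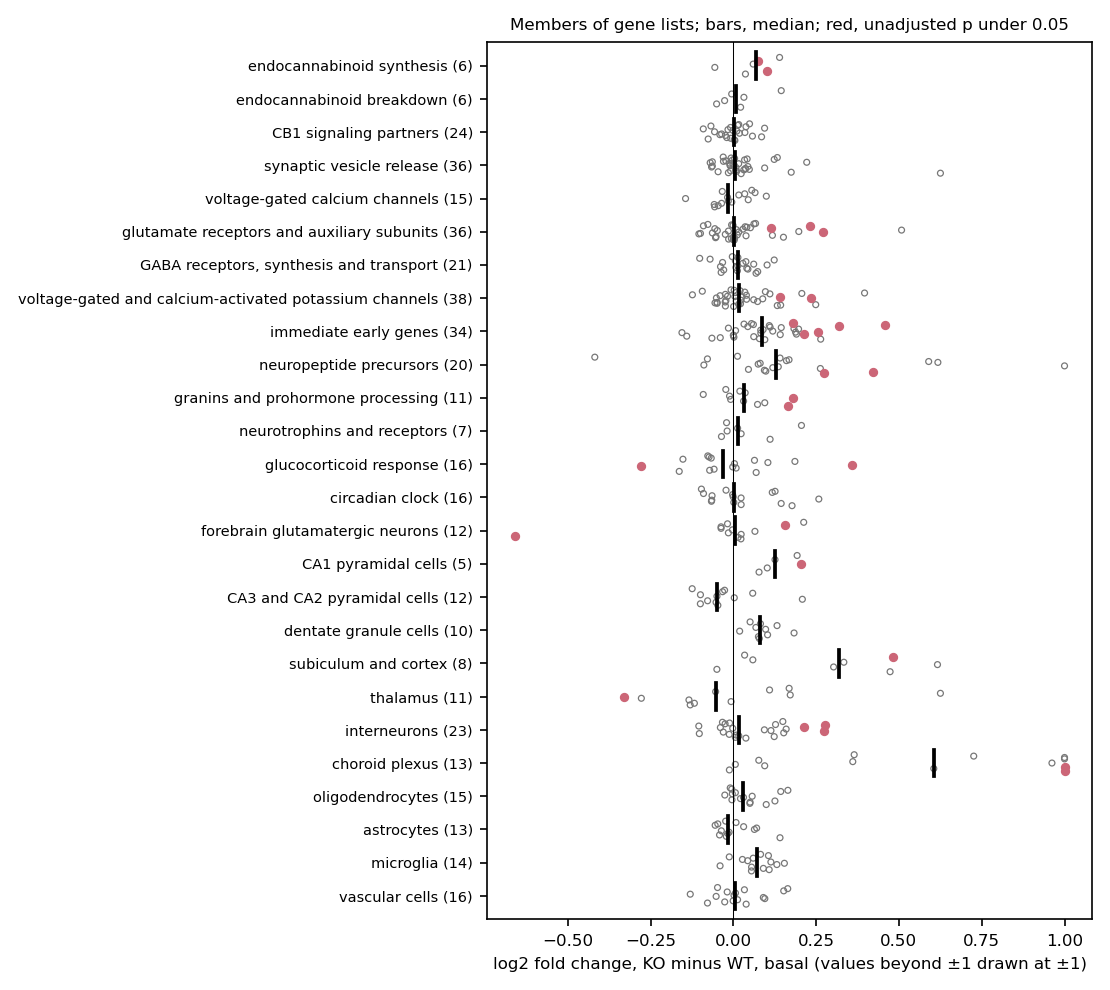
Log2 fold change, KO minus WT, basal, of each tested member of 26 gene lists, with the number tested in brackets; black bars are medians, red points had an unadjusted p under 0.05, and values beyond 1 are drawn at 1. Most medians lie near 0, the choroid plexus list lies highest at 0.61 (-0.06 without KO replicate 6), and *Neurod6* is the red point furthest left.

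Because 2 of the 3 DEGs adjoin each other, the genes around them were described by position. On chromosome 6, 53 of 754 genes (7.03%) had an unadjusted p under 0.05, against 488 of 14384 (3.39%) elsewhere. The share was highest near *Neurod6*, and beyond 30 Mb it was also above that of the other chromosomes. With *Neurod6* and *Gm3279* left out, 11 of 27 genes within 2 Mb (40.7%) and 17 of 92 within 10 Mb (18.5%) had a p under 0.05, while between 10 and 30 Mb away 6 of 190 did (3.16%) and beyond 30 Mb 28 of 470 (5.96%). In open field mice 6 of the 27 nearest genes had a p under 0.05, 5 of them among the 11 and with the same sign, and in the basal GABA-CB1 line 4 of the 27 did, beside 18 of 190 between 10 and 30 Mb and 35 of 470 beyond 30 Mb. Around *Cnr1* on chromosome 4, 11 of 25 genes within 2 Mb were higher and 0 had a p under 0.05. Neighboring genes are not independent of each other, and no test was made of these shares.

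Differences of the neighbors lay on both sides of 0. Chosen after their values were seen, for a p under 0.05 in the same direction in both states within 10 Mb, were *Inmt*, an amine methyltransferase gene, with -0.92 (SE 0.30) basal and -0.85 (SE 0.25) after the open field, and *Pde1c*, a calmodulin-dependent phosphodiesterase, with -0.29 (SE 0.08) and -0.22 (SE 0.10). *Fkbp9*, an isomerase of the endoplasmic reticulum, had -0.17 (SE 0.04) and -0.26 (SE 0.06), and *Pyurf* had -0.29 (SE 0.07) and -0.24 (SE 0.05). On the higher side were *Npy*, *Osbpl3*, an oxysterol-binding protein gene, with 0.23 (SE 0.07) and 0.25 (SE 0.08), *Ccser1* with 0.19 (SE 0.06) and 0.23 (SE 0.05), *Prr15* with 0.61 (SE 0.28) and 0.82 (SE 0.25), and *6430584L05Rik* with 0.40 (SE 0.19) and 0.49 (SE 0.16). *Pyurf* read 19.4, 22.2, 22.8, 24.4 and 24.8 CPM in WT and ran from 17.1 to 20.8 with a median of 18.3 in KO libraries, with 1 WT library inside the KO range. *Adcyap1r1*, the PACAP receptor gene 0.226 Mb from *Neurod6*, had a log2 fold change of -0.12 (SE 0.04) basal and -0.05 after the open field. In the GABA-CB1 line *Fkbp9* had -0.05 (SE 0.04), *Pde1c* 0.01 (SE 0.09) and *Ccser1* -0.01 (SE 0.06), and none of these differences between the lines passed. Within the sets *Prr15* had 1.51 (SE 0.51) and 0.18 (SE 0.26) and *6430584L05Rik* 0.80 (SE 0.33) and 0.13 (SE 0.17).

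**Figure D5:**
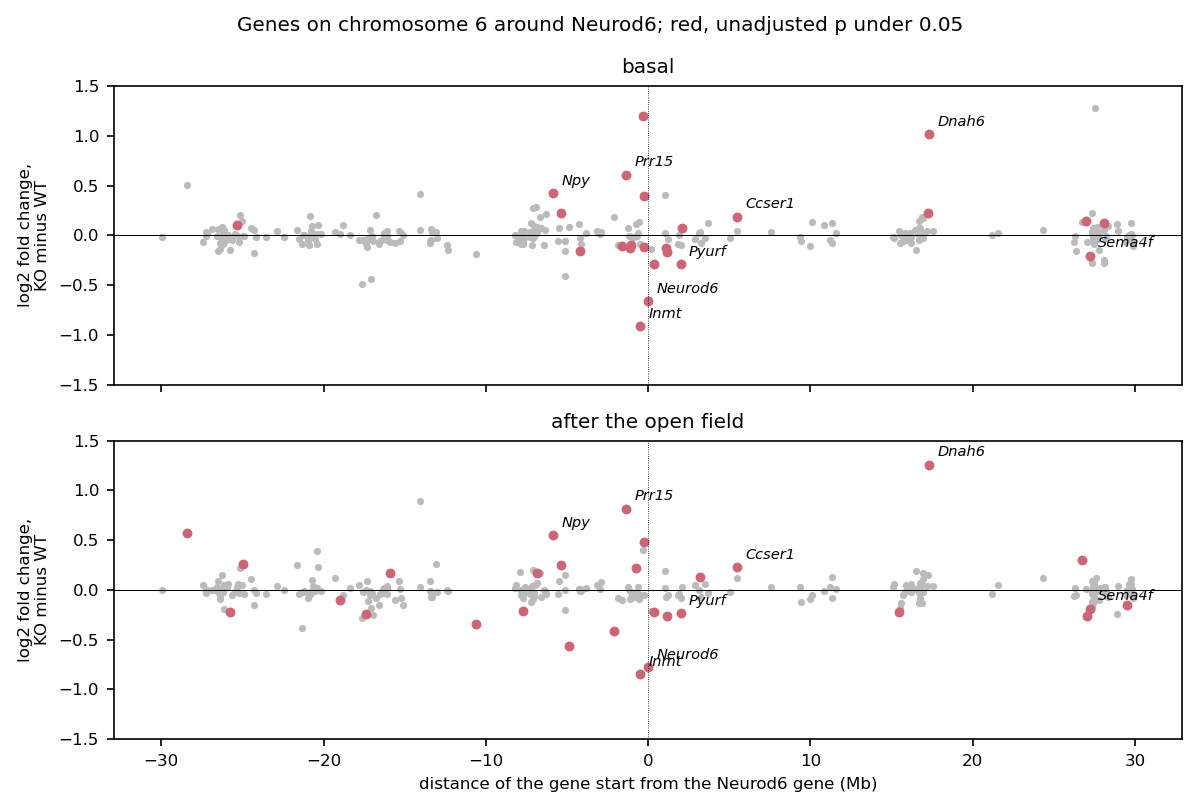
Log2 fold change, KO minus WT, against the distance of the gene start from *Neurod6* in Mb on chromosome 6, in basal mice (top) and after the open field (bottom), 1 point per gene; red points had an unadjusted p under 0.05, and *Gm3279* lies beyond the axis. Red points gather within 2 Mb in the basal state, where 11 of 27 genes other than the 2 DEGs are red.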

How the data were processed

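Hippocampal CA tissue of the Glu-CB1 line was measured by RNA-sequencing, and groups were taken from the sample labels, 1 mouse per library. RNA was amplified from small inputs by the SPIA method, which can weight transcripts unevenly. The authors trimmed the reads, which were single-end, and used STAR 2.6.0a with the mm10 build for alignment and featureCounts 1.6.2 for counts per gene by strand. They deposited raw counts, whole numbers without normalization, for 24421 genes. Here KO and WT libraries were compared with the quasi-likelihood F-test of edgeR 4.0.16 (R 4.3.3), using TMM factors, filterByExpr defaults and Benjamini-Hochberg adjustment, with only the 12 basal libraries in the fit. CPM were computed from the counts with TMM factors, and standard errors were derived from the F statistic. Open field libraries were fitted in the same way, and genotype by state and genotype by line over 24 libraries each. DESeq2 1.42.0 was an alternative, and Python 3.11.15 with matplotlib 3.10.9 drew the plots. No molecular identifiers were used, so reads are not independent molecules, and intervals rest on the spread between mice. The tests were tried on simulated counts.

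Members and lists were chosen with earlier results of these data known. Named are the DEGs, the 6 genes higher and 6 lower with the lowest p among the rest with a mean of at least 1 CPM, DESeq2's calls, each list's highest and up to 2 lowest-p members, genes named by the study and genes that differed between lines. Genes also called after the open field, neighbors of *Neurod6* and *Tyrobp* were added after values were seen, as was the split of name numbers at 850. Some genes are not reported here.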

Additional observations from a re-analysis of the deposited data

Results flagged for a closer look

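In 14 of 198 groups of libraries checked, 1 library lay far from the others of its group by Dixon's criterion, which chance meets in about 1 group of 20. WT replicate 3 read 134 CPM of *Sst*, 43.1 of *Bdnf* and 919.6 of *Sort1* against 86.6 to 95.7, 51.6 to 53.6 and 1003 to 1035 CPM in the other WT libraries. KO replicate 6 read 566 CPM of *Ttr*, 2.25 of *Aqp1*, 673 summed over choroid plexus markers and 857 summed over CA3 and CA2 markers, against at most 71.3, 0.547, 127 and 722 CPM in the other KO libraries. WT replicate 1 read 113 CPM summed over choroid plexus markers, against at most 75.6. KO replicate 2 read 170.0 CPM of *Fam163b* and 736 summed over dentate granule cell markers, against at most 108 and 433. *Plch1* was 14.2 CPM in WT replicate 2, *Fosb* was 8.10 CPM in KO replicate 5, and *Alas2* was 0.824 CPM in KO replicate 7, as was the blood sum. What sets these libraries apart was not tested.

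The genotype difference itself differed between the Glu-CB1 and the basal GABA-CB1 line, by the genotype by line test at an adjusted p under 0.05 (edgeR, Benjamini-Hochberg), in 15 of the named genes. Over all genes the test called 43 of 15390 (0.279%). The named genes were picked partly by a low p in the Glu-CB1 line and partly by this test, so the 15 are not an independent count. Given as the log2 fold change of the Glu-CB1 line minus that of the GABA-CB1 line, the values were 0.50 for *Cnr1*, 3.68 for *Gm3279*, -0.59 for *Neurod6*, 0.71 for *Npy*, -0.29 for *Sema4f*, -0.57 for *Plch1*, -0.45 for *Plekhg1*, 1.29 for *Pdlim1*, 0.62 for *Mylk*, 1.47 for *Blnk*, 0.62 for *Ier5*, -0.84 for *Ntsr1*, 0.80 for *Crhbp*, 0.38 for *Kcnip3* and 0.17 for *Gde1*. Of these, *Cnr1* fell in both lines.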

How the results depend on the processing

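The basal count of 3 DEGs was 3 with RLE size factors, with no filter on low counts, with the replicate block, with the name number under 1000 or under 850 as a covariate and among the libraries numbered over 850 alone, 2 with at least 10 counts in every library and among the libraries numbered under 850 alone, 4 with all 24 libraries of the line, and 3 to 5 when each library was left out in turn. It was 5 without WT replicate 3, which added *Npy* and *Plekhg1*. It was 7 with DESeq2, with all 48 libraries in one fit and with edgeR's likelihood ratio test, 11 with DESeq2 over all 48 libraries, and 15 with DESeq2 and the name number under 850, an alternative chosen after seeing the data, as were the others at 850. The 3 DEGs were called in each of these fits except *Gm3279* with at least 10 counts in every library, where it was not tested, and *Neurod6* among the libraries under 850 alone (adjusted p = 0.0763, edgeR). Among the libraries numbered 1000 and over alone *Neurod6* had -0.52 (adjusted p = 0.697, edgeR). Genes whose interval lay within 1.5-fold numbered 13414 to 13642 with a library left out. The open field count of 41 was 37 with RLE, 124 with DESeq2, 60 with the name number under 850 as a covariate and 3 with the replicate block. The genotype by line count of 43 was 43 with RLE, 75 with DESeq2, 36 with no filter and 30 with the block, and the genotype by state count was 0 in the 6 edgeR and DESeq2 fits (359 to 544 genes at an unadjusted p under 0.05). The replicate numbers do not pair the mice: same-numbered libraries correlated at -0.15 to 0.34, and 0 of 5 were most alike to their own number. The cause of these differences was not tested.

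Of 2121 values of named genes under an alternative, 2009 kept their direction and side of the threshold, and of 825 list medians 813 moved by less than the spread between libraries. The log2 fold changes of some genes changed sign as follows. Most of them lay close to 0 in the main fit, but *Ttr* was at 2.06 (SE 0.91) there. With at least 10 counts in every library, *Nr3c2* had 0.00073. With the replicate block, *Ntng1* had 0.0078, *Homer1* -0.0092, *Snap25* -0.032, *Alas2* 0.11, *Gria1* -0.0055, *Grin2b* -0.18. With the name number under 1000 as a covariate, *Sort1* had 0.0076, *Slc1a2* 0.014, *Camk2a* 0.011, *Cacna1e* 0.10, *Nr3c2* 0.087. With the name number under 850 as a covariate (edgeR), *Cacna1e* had 0.012, *Nr3c2* 0.0080. With the same with DESeq2, *Cacna1e* had 0.013, *Nr3c2* 0.0091. With the libraries numbered under 1000 alone, *Ttr* had -0.085, *Mbp* -0.031, *Sort1* 0.0044, *Ntng1* 0.066, *Slc1a2* 0.057, *Camk2a* 0.0033, *Snap25* -0.014, *Alas2* 0.027, *Gria1* -0.0095, *Cacna1e* 0.15, *Nr3c2* 0.13. With those numbered 1000 and over alone, *Adcy1* had -0.021, *Adgrl2* -0.030, *Cpne4* 0.079, *Nr4a2* -0.23, *Slco1a4* 0.0099, *Fam163b* -0.080, *Sort1* 0.012, *Camk2a* 0.021, *Cacna1e* 0.045, *Nr3c2* 0.042. With those numbered under 850 alone, *Ttr* had -0.045, *Mbp* -0.029, *Bdnf* -0.012, *Rab3b* -0.020, *Gad1* -0.041, *Cpe* -0.037, *Ntng1* 0.12, *Slc1a2* 0.054, *Snap25* -0.070, *Alas2* 0.030, *Gria1* -0.0084, *Cacna1e* 0.15, *Nr3c2* 0.025. With those numbered over 850 alone, *Nr4a2* had -0.073, *Fam163b* -0.041, *Dagla* -0.041, *Grin2b* -0.037. With each library left out in turn, genes that changed sign ran *Cacna1e* from -0.068 to 0.063, *Nr3c2* from -0.083 to 0.047, *Nr4a2* from -0.011 to 0.17, *Camk2a* from -0.060 to 0.019, *Grin2b* from -0.21 to 0.23, *Dagla* from -0.010 to 0.087, *Homer1* from -0.022 to 0.11, *Snap25* from -0.011 to 0.047, *Alas2* from -0.20 to 0.10, *Gria1* from -0.017 to 0.026, *Slco1a4* from -0.12 to 0.011, *Ntng1* from -0.12 to 0.021, *Slc1a2* from -0.056 to 0.020, *Fam163b* from -0.062 to 0.18. Depth limits low genes such as *Gm3279*, with 5 to 12 reads in WT libraries, and the receptors with at most 10 reads.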
